A study of Homo sapiens with 6 samples.

Results

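The Hippo pathway core was followed here through the transcripts of 10 genes in 786-O cells, a human line established from a renal cell carcinoma. The genes are YAP1, WWTR1, TEAD1, TEAD2, TEAD3, TEAD4, LATS1, LATS2, STK3 and SAV1, picked by name with earlier results of these data known. Every probe set of the array whose only gene symbol is one of these was used, which gave 34 of the 49395 probe sets in the deposited table. No probe set carried one of these symbols beside another gene's. Transcripts were read on 6 Affymetrix arrays of 1 colour, 3 from cells given an shRNA against ERCC6L (shERCC6L) and 3 from cells given a negative control shRNA (shNC). The shRNAs of both groups came in by lentivirus according to the study design, and both groups are the same line, grown in serum-containing RPMI medium. The labels do not say how many hairpins against ERCC6L were used or whether replicates were separate infections, so the spread between arrays may be technical. A bulk array cannot tell less RNA per cell from fewer cells carrying that RNA.

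The Hippo pathway is a kinase cascade that restrains growth. The kinases MST1 and MST2, encoded by STK4 and STK3, work with the scaffold protein SAV1 to activate the kinases LATS1 and LATS2. Active LATS kinases phosphorylate the coactivators YAP and TAZ, encoded by YAP1 and WWTR1, which are then held in the cytoplasm or degraded. Unphosphorylated YAP and TAZ enter the nucleus and bind the DNA-binding factors TEAD1 to TEAD4, through which they switch on genes of growth, adhesion and matrix. The pathway acts largely through phosphorylation, which transcript levels do not show.

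The arrays were alike in scale, with median signals of 60.04 to 61.21 in shERCC6L and 60.37 to 61.56 in shNC. The target itself, ERCC6L, a DNA translocase of anaphase bridges, had signals of 97.6, 97.5 and 97.8 on the shERCC6L arrays, against 240, 244 and 261 on the shNC arrays. Of 6 measured markers of renal carcinoma cells all 6 lay at or above the median level of all genes, from percentile 60.9 for the nephric factor PAX2 to percentile 99.98 for vimentin (VIM). Of 7 markers of leukocytes, endothelium, liver and muscle 0 did, at percentiles of 1.88 to 48.4. Between groups 0 of these 7 passed the test. Of the 6 renal carcinoma markers 4 passed, EPAS1 at -0.36 and MET at -0.26 lower, and PAX8 at 0.34 and KRT18 at 0.13 higher (log2). Their part in the results below was not tested.

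Of the core genes YAP1 stood out. It was lower in shERCC6L on all 8 of its probe sets, WWTR1 was slightly lower on 2 of 3, and the other 8 genes moved little or did not pass the test. In all, 11 of the 34 probe sets were lower and 2 higher in shERCC6L at a limma p-value adjusted over all probe sets under 0.05, and 21 did not pass. That is 38.2% of the member probe sets, against 28.7% of all 49293 non-control probe sets (16.8% higher and 11.9% lower). As the genes were chosen with earlier results known, this share and the place of YAP1 are descriptive only. Brighter probe sets pass more often, and among those at or above the median level 10 of 20 member probe sets passed, against 48.1% of all. Without YAP1 the count was 5 of 26 (19.2%), with 2 higher and 3 lower, and at or above the median level it was 4 of 14. The groups did not overlap on 16 of the 34, lower in shERCC6L on 12 and higher on 4, against 18.7% lower and 22.3% higher of all probe sets. All 8 YAP1 probe sets are among these 12, and they share the transcripts of 1 gene. The median log2 fold change over the 34 probe sets was -0.04, against -0.01 over all probe sets. All fold changes below are shERCC6L over shNC on the log2(signal + 16) scale, which understates the change of dim probe sets.

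**Figure D1:**
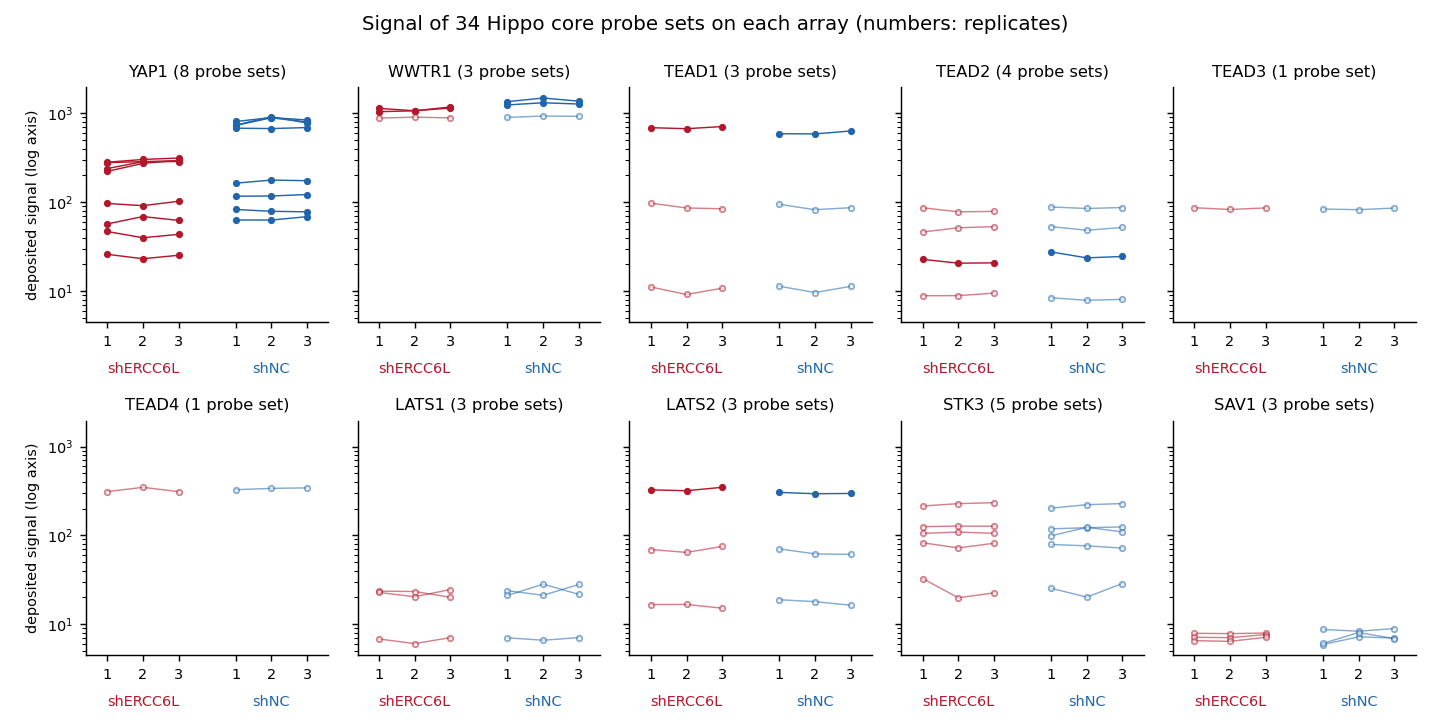
Deposited signal of the 34 probe sets on each array, on a log axis, with 1 panel per gene, shERCC6L arrays in red on the left and shNC arrays in blue on the right, and each line joining the replicates of 1 probe set in 1 group. Filled points mark probe sets past the threshold. All 8 YAP1 lines sit lower in shERCC6L, and the SAV1 lines lie at signals of 5.90 to 8.94 in both groups.

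Detection calls were not used here, and no background level is known for these signals. SAV1 and LATS1 were the dimmest of the 10 genes relative to all probe sets. The 3 SAV1 probe sets lay at percentiles of level between 2.81 and 7.28, and the 3 LATS1 probe sets between 2.59 and 30.8. Values for these 2 genes, and for the dimmest probe sets of TEAD1 and TEAD2, are given as read, and how much of them is transcript is unknown.

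YAP1, the coactivator that LATS kinases restrain, had the strongest change of the 10. It lies on chromosome 11 from 102110447 to 102233424 (GRCh38.p14). Its brightest probe set read 282, 303 and 314 on the shERCC6L arrays, against 810, 895 and 842 on the shNC arrays. No shERCC6L array came near the lowest shNC array. On the log2 scale shERCC6L minus shNC was -1.46 ± 0.05 (SE, n = 3 arrays each; adjusted p = 6.2e-07 by limma), with 35.3% of the shNC signal left. Among all 18132 genes, each on its brightest probe set, YAP1 had the 9th strongest fall. It was 1 of 62 genes (0.342%) that fell by at least 2-fold.

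The bases just before the YAP1 start are shown because YAP1 carries the change. The window is chr11:102110197-102110446 on the plus strand (RefSeq, GRCh38.p14), 250 bases long and 72% G and C, against a median of 58% over all promoter windows of the RefSeq table. Capitals mark a match to the TEAD hexamer CATTCC, which lies here on the opposite strand.
YAP1: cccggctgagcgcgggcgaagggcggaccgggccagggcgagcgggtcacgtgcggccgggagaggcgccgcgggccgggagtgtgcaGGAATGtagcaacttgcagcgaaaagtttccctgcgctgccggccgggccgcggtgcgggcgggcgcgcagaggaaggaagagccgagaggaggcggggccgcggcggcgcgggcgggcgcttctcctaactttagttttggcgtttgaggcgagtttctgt
The hexamer was searched on both strands in the 250 bases before the start in 35116 promoter entries of 27305 genes, and 11.9% of entries held it. Of the core genes 6 had an entry at their 5′ end (YAP1, TEAD2, TEAD3, LATS1, LATS2 and SAV1), and 1 of these held it, YAP1. The ETS motif CCGGAAG was in 8.52% of all windows and in 0 of the 6. The AP-1 motif TGANTCA was in 6.57% of all windows and, among the 6, in that of LATS1 alone. A match of letters is no evidence of binding.

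The other YAP1 probe sets share its transcripts and are not replicates of the condition, but they measure different probes. The second brightest read 239, 286 and 293 in shERCC6L, against 731, 891 and 800 in shNC. The third read 222, 273 and 296 in shERCC6L, against 736, 916 and 778 in shNC. The fourth read 279, 286 and 286 in shERCC6L, against 681, 674 and 692 in shNC. On each of these the groups were far apart, and the fourth had the smallest spread, at -1.22 ± 0.03 (log2, SE).

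The 4 dimmer YAP1 probe sets fell by less on the log2 scale. The brightest of them read 96.7, 91.3 and 102 in shERCC6L, against 164, 177 and 174 in shNC. The dimmest read 25.9, 23.1 and 25.2 in shERCC6L, against 63.0, 62.9 and 68.7 in shNC. Again no array of 1 group reached the other. The log2 fold changes of the 4 brighter probe sets were -1.57 to -1.22 and those of the 4 dimmer ones -0.99 to -0.69.

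Expressed as signal left, which has no pseudocount, the 4 brighter probe sets kept 32.5% to 41.6% of the shNC signal and the 4 dimmer ones 38.1% to 56.4%. The dimmest probe set, with 38.1% left, therefore lay within the range of the brighter ones, and its smaller log2 change partly reflects the pseudocount. With a pseudocount of 1 its log2 fold change was -1.36, against -0.99 with 16. In Affymetrix naming the x and s suffixes mark probe sets whose probes can also match other transcripts. Of the 8 YAP1 probe sets 3 carry such a suffix, and the 5 without it fell as well, with log2 fold changes of -1.57 to -0.69. Which exons each probe set covers is not used here.

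**Figure D2:**
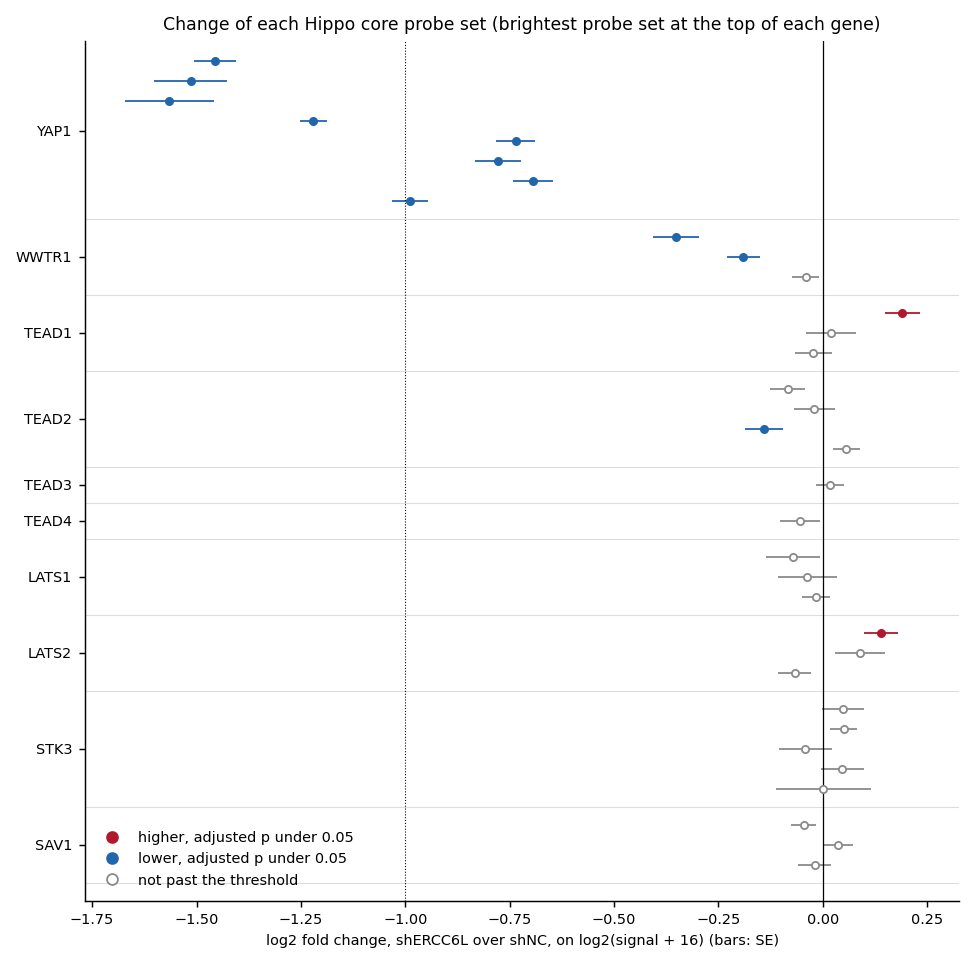
Log2 fold change of each of the 34 probe sets, shERCC6L over shNC, with bars of 1 SE from limma and the brightest probe set at the top of each gene. Blue and red points passed the threshold as lower and higher, and open points did not. The dotted line marks a 2-fold fall, which 4 YAP1 probe sets passed, and the other genes lie between -0.35 and 0.19.

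WWTR1 encodes TAZ, the paralogue of YAP. Its brightest probe set read 1044, 1068 and 1180 on the shERCC6L arrays, against 1354, 1487 and 1370 on the shNC arrays. The groups did not overlap, with a log2 fold change of -0.35 ± 0.06 (SE, n = 3 arrays each; adjusted p = 0.0016 by limma). A second probe set of nearly the same brightness read 1136, 1070 and 1147 in shERCC6L, against 1244, 1315 and 1273 in shNC, and fell by 0.19 ± 0.04 (limma adjusted p = 0.007). The third read 885, 905 and 890 in shERCC6L, against 900, 933 and 926 in shNC. On that one the groups overlapped and the change of -0.04 did not pass (95% interval -0.11 to 0.03). The size of the WWTR1 fall thus differed between its probe sets, and with the 3 averaged it was -0.19 (limma adjusted p = 0.0017).

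The 2 coactivators did not change by the same amount. On brightest probe sets the log2 fold change of YAP1 was lower than that of WWTR1 by 1.10. The within-group SD of the per-array log2 difference between them was 0.05 in shERCC6L and 0.02 in shNC. An exact two-sided permutation test over arrays gave p = 0.1, the smallest that 3 against 3 can give (adjusted p = 0.13 over 8 pairs of paralogues). Over averaged probe sets it came to -0.92.

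The TEAD genes encode the DNA-binding partners. TEAD1 had 1 probe set that passed. It read 690, 671 and 710 on the shERCC6L arrays, against 589, 587 and 633 on the shNC arrays, a log2 fold change of 0.19 ± 0.04 (SE, n = 3 per group; limma adjusted p = 0.008). All 3 shERCC6L arrays lay above all 3 shNC arrays. The other 2 TEAD1 probe sets, dimmer, had log2 fold changes of 0.02 and -0.02. With the 3 averaged, TEAD1 changed by 0.06 and did not pass (limma adjusted p = 0.24).

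TEAD2 was lower on 1 of 4 probe sets, a dim one that read 22.7, 20.6 and 20.7 in shERCC6L, against 27.5, 23.6 and 24.5 in shNC. The groups did not overlap there, at -0.14 ± 0.05 (SE; limma adjusted p = 0.046). Its brightest probe set, at 86.5, 77.9 and 78.7 in shERCC6L and 88.3, 84.9 and 87.0 in shNC, had a change of -0.08 and did not pass. The TEAD2 call ended in 7 of 14 other settings, so it sits at the edge of the threshold.

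TEAD3 and TEAD4 had 1 probe set each. TEAD3 read 86.6, 82.7 and 86.2 in shERCC6L, against 83.7, 82.3 and 85.9 in shNC, with a log2 fold change of 0.02 (95% interval -0.06 to 0.09). TEAD4 read 311, 347 and 311 in shERCC6L, against 327, 338 and 342 in shNC, with a log2 fold change of -0.05 (95% interval -0.16 to 0.05). In both the groups overlapped. The intervals leave room for small changes only, far short of that of YAP1.

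Of the 6 pairs of TEAD genes, the change of TEAD1 exceeded those of TEAD2, TEAD4 and TEAD3 by 0.27, 0.25 and 0.17 on the log2 scale, and the per-array differences did not overlap between groups (exact permutation p = 0.1 each, adjusted p = 0.13). For TEAD2 and TEAD3 the difference was -0.10, and the groups did not overlap there either (exact permutation p = 0.1, adjusted p = 0.13). For TEAD2 and TEAD4, and for TEAD3 and TEAD4, it was -0.03 and 0.07, with groups that overlapped. None of these tests can go below 0.1 in this design. All pairs were compared on brightest probe sets, and with its 3 probe sets averaged TEAD1 changed by 0.06 (limma adjusted p = 0.24).

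LATS1 and LATS2 encode the kinases that phosphorylate YAP and TAZ. The brightest LATS2 probe set read 325, 318 and 348 on the shERCC6L arrays, against 304, 294 and 296 on the shNC arrays. The groups did not overlap, and it rose by 0.14 ± 0.04 (log2, SE, n = 3 per group; limma adjusted p = 0.031). The other LATS2 probe sets, at 0.09 and -0.07, did not pass. This call was lost with quantile normalization (0.11, limma adjusted p = 0.071), with a pseudocount of 1 (0.15, limma adjusted p = 0.069) and when any of 5 single arrays was left out (limma adjusted p of 0.050 to 0.088). LATS2 is itself a known target of YAP and TEADs.

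LATS1 was dim. Its brightest probe set read 23.5, 23.3 and 20.1 in shERCC6L, against 23.8, 21.2 and 28.0 in shNC. The groups overlapped on all 3 probe sets, with log2 fold changes of -0.07 to -0.02. The changes of LATS1 and LATS2 differed by 0.21, with within-group SDs of 0.13 and 0.12 (exact permutation p = 0.1, adjusted p = 0.13).

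STK3 encodes the upstream kinase MST2. Its brightest probe set read 214, 228 and 233 in shERCC6L, against 203, 222 and 228 in shNC, so the groups overlapped. Over 5 probe sets the log2 fold changes ran from -0.04 to 0.05 and 0 passed. SAV1, which bridges the MST and LATS kinases, read 7.89, 7.83 and 7.95 in shERCC6L on its brightest probe set, against 8.73, 8.33 and 8.94 in shNC. Its 3 probe sets had log2 fold changes of -0.05 to 0.04 and 0 passed. The groups did not overlap on the brightest one, but at signals this low a change in SAV1 cannot be judged.

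**Figure D3:**
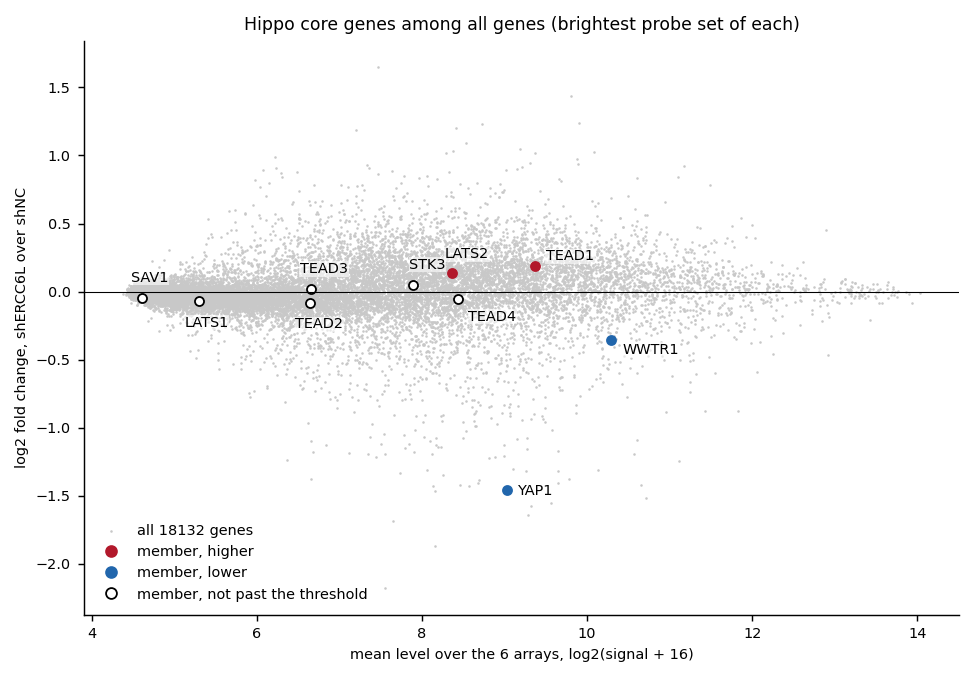
Log2 fold change, shERCC6L over shNC, against mean level over the 6 arrays, both on log2(signal + 16), for all 18132 genes (grey) on their brightest probe set. The 10 core genes are labelled, blue where lower, red where higher and open where not past the threshold. YAP1 lies at -1.46, below the other 9, which lie between -0.35 and 0.19.

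Counted by gene on the brightest probe set, 2 of the 10 were lower (YAP1, WWTR1) and 2 higher (TEAD1, LATS2), or 40%, against 31.6% of all 18132 genes (18.2% higher, 13.4% lower). On the average of its probe sets, the count was 2 lower and 0 higher.

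The genes whose values over the 6 arrays were most like those of YAP1, by the root mean square difference after centring each gene on its shNC mean, were ARPC5, OSTC, PJA1, PRKACB and MMGT1. These differences were 0.04 to 0.07 on the log2 scale. ARPC5, a subunit of the actin-nucleating Arp2/3 complex, read 937, 936 and 1026 in shERCC6L, against 2519, 2710 and 2591 in shNC. PJA1, a ubiquitin ligase gene, read 225, 249 and 247 in shERCC6L, against 623, 701 and 633 in shNC. PRKACB was not uniform, with 3 of its 4 probe sets lower and 1 higher. The measure is set almost entirely by the size of the fall between groups.

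The genes beside YAP1 on chromosome 11 did not fall with it as a block. On the side of lower coordinates, CFAP300 rose by 0.46 ± 0.07 (log2, SE; limma adjusted p = 0.00067), while CEP126 and ANGPTL5, at -0.02 and -0.01, did not pass. ANGPTL5 read 5.47, 5.51 and 5.50 in shERCC6L, against 5.85, 5.51 and 5.57 in shNC, at percentile 0.04 of level. At signals this low a fall in ANGPTL5 cannot be judged. On the other side the apoptosis inhibitor gene BIRC2 did not pass, at 1336, 1382 and 1386 in shERCC6L and 1313, 1319 and 1358 in shNC. Beyond it TMEM123 fell by 0.33 ± 0.03 and MMP7, the matrix metalloproteinase matrilysin, by 0.75 ± 0.05. These are the 3 nearest measured genes on each side, and others may lie between them.

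The rest of the pathway was taken from 5 lists of 91 genes, of which 83 were measured. The lists were chosen with earlier results of these data known. In these, 16 were higher and 18 lower, or 41.0%, against 31.6% of all genes (18.2% higher, 13.4% lower). The median log2 fold change was -0.02, against -0.01 over all genes. Many of the 83 are bright, and of all probe sets at or above the median level 48.1% passed. A share of genes matched for level was not computed. None of the 83 changed by 2-fold on the log2(signal + 16) scale. By signal without the pseudocount, the dim AMOT probe set kept 49.1% of its shNC level. Without shNC replicate 1 the higher genes numbered 10 and the lower ones 17.

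Of the 22 measured partners of the kinase cassette, 7 were higher and 4 lower (50%, median log2 fold change 0.02). Of all genes 31.6% passed, and of all probe sets at or above the median level 48.1%. MOB1A, the LATS coactivator, fell by 0.24 ± 0.04 (log2, SE; limma adjusted p = 0.0013), with 909, 930 and 981 in shERCC6L, against 1093, 1113 and 1141 in shNC. All 5 of its probe sets fell, while its paralogue MOB1B, at -0.03, did not pass. STK38, a relative of LATS with 1 probe set, fell by 0.32. MAP4K4, which acts beside MST kinases on LATS, fell by 0.32 on its brightest probe set and passed on 3 of 5, with an average over the 5 of -0.12. STK4, the paralogue of STK3, rose by 0.14 ± 0.03, with 3 of its 6 probe sets past the threshold. WWC1, the scaffold KIBRA, rose by 0.20 on its brightest probe set, and NF2, the membrane activator merlin, by 0.18. For both no other probe set passed, and averaged changes were 0.06 and -0.02.

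STRIPAK is a phosphatase assembly that opposes the MST kinases. Of its 17 measured genes 3 were higher and 1 lower (23.5%, median 0.07), a smaller share than the 31.6% of all genes. PPP2R1B, a scaffold subunit of the phosphatase PP2A, fell by 0.45 ± 0.05 (log2, SE; limma adjusted p = 0.00023). FGFR1OP2 rose by 0.25 ± 0.04 on its brightest probe set, and all 4 of its probe sets rose. PDCD10 and STRN rose by 0.19 and 0.14, and both calls were lost under at least 6 other settings.

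Junction and polarity proteins feed cell contact into the cascade. Of 25 measured, 4 were higher and 9 lower (52%, median -0.02). Of all genes 31.6% passed, and of all probe sets at or above the median level 48.1%. AMOT, angiomotin, which binds YAP at junctions, read 29.2, 30.1 and 31.0 in shERCC6L, against 58.4, 60.9 and 64.5 in shNC. It fell by 0.74 ± 0.04 (log2, SE; limma adjusted p = 1.9e-06), on 2 of its 4 probe sets. The polarity genes PATJ and LLGL1 fell by 0.40 and 0.38 on their brightest probe sets and the giant cadherin FAT4 by 0.52. Averages over all probe sets came to -0.41 for AMOT, -0.13 for PATJ, -0.24 for LLGL1 and -0.28 for FAT4.

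In the list of phospho-YAP retention and turnover, 2 of 11 measured genes were higher and 2 lower (36.4%, median 0.02). That is near the 31.6% of all genes. CSNK1D, a casein kinase that phosphorylates YAP and TAZ ahead of their degradation, read 467, 479 and 493 in shERCC6L, against 835, 807 and 882 in shNC. It fell by 0.79 ± 0.04 (log2, SE; limma adjusted p = 2e-06), on all 5 of its probe sets. Among genes of the phosphoserine-binding proteins that hold YAP in the cytoplasm, YWHAH fell by 0.62 ± 0.04 and YWHAB rose by 0.33 ± 0.04, each on all of its probe sets. The other measured genes of this family did not pass. ITCH, a ubiquitin ligase that acts on LATS1, rose by 0.21 ± 0.04.

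Among 8 measured cofactors of TEADs and YAP, 2 were lower and 0 higher (25%, median -0.06), against 31.6% of all genes. VGLL4, which competes with YAP for TEADs, fell by 0.34 ± 0.04 (log2, SE; limma adjusted p = 0.00038), on all 3 probe sets, with 120, 123 and 124 in shERCC6L, against 170, 155 and 151 in shNC. VGLL1, VGLL2 and VGLL3, at -0.04 to -0.02, did not pass. RUNX2 fell by 0.24 ± 0.05 on its brightest probe set.

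**Figure D4:**
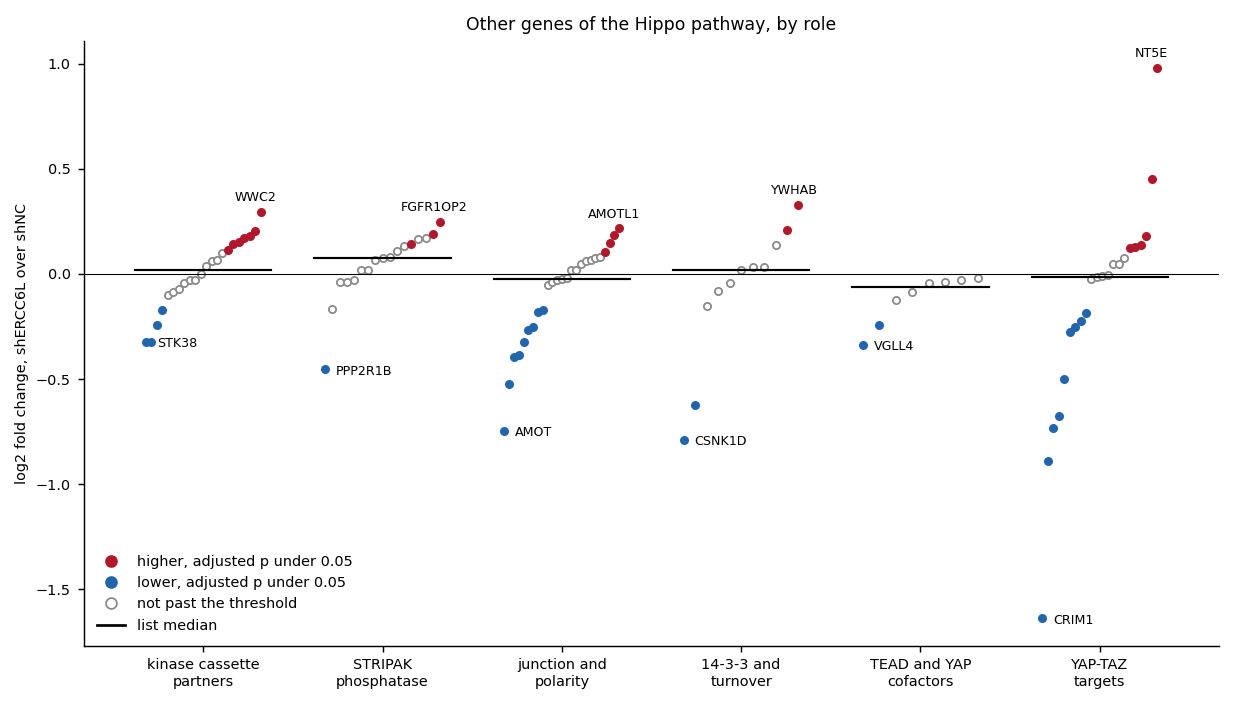
Log2 fold change, shERCC6L over shNC, of the measured genes of 6 lists on their brightest probe sets, sorted within each list, with a black line at each list's median. Blue and red points passed the threshold as lower and higher. The junction list holds 9 lower genes of 25, where 13.4% of all genes were lower. The YAP-TAZ targets reach from -1.64 (CRIM1) to 0.98 (NT5E).

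Of 22 genes known as YAP-TAZ targets, 9 were lower and 6 higher, or 68.2%, against 31.6% of all genes (18.2% higher, 13.4% lower). Most of these genes are bright, and of all probe sets at or above the median level 48.1% passed. A share of genes matched for level was not computed, and the list was chosen with earlier results of these data known. The number of rises called depended on the setting more than the number of falls did. Over all genes 3302 rises were called, and 2783 to 3126 when any array was left out. The 6 higher became 2 without shERCC6L replicate 3, and 3 without shERCC6L replicate 2, without shNC replicate 3 or with a pseudocount of 1, while 9 were lower in each of these. The list's median log2 fold change was -0.01, as over all genes. CRIM1, a transmembrane regulator of BMPs, read 321, 352 and 343 in shERCC6L, against 1072, 1128 and 1056 in shNC, and fell by 1.64 ± 0.04 (log2, SE; limma adjusted p = 9e-08). CCDC80 fell by 0.89 ± 0.04, and TGFB2, which encodes a growth factor, fell by 0.73 ± 0.04. NT5E, the ectonucleotidase CD73, rose by 0.98 ± 0.08, at 1205, 1299 and 1419 in shERCC6L, against 606, 730 and 634 in shNC.

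The targets most used as readouts of YAP activity moved little. CCN1 fell by 0.27 ± 0.04 (log2, SE; limma adjusted p = 0.00038), with 2369, 2465 and 2514 in shERCC6L, against 2922, 2997 and 2979 in shNC. CCN2 read 429, 451 and 436 in shERCC6L, against 451, 467 and 421 in shNC, and did not pass at -0.02. ANKRD1, at 16.4 to 20.7 in shERCC6L and 18.0 to 19.98 in shNC, was dim and did not pass, at -0.01. LATS2, AMOTL2, PTPN14 and FJX1 stand in this list and also among the pathway genes above.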

How the data were processed

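Total RNA of 6 samples of 786-O cells was extracted with Trizol and hybridised as biotin-labelled cRNA, per the labels' protocols. The deposited table gives 1 intensity per probe set and array, on a linear scale. Per the submitters' processing notes the authors used Affymetrix Expression Console. The sources used here do not give its version, background correction or normalization. Nothing was rescaled, because array medians and quartiles were already close.

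Of 49395 probe sets, 102 controls were left out, 44988 had 1 gene symbol, 1832 several and 2473 none here. Gene numbers matched RefSeq (GRCh38.p14) for 44961. Listed genes without a row are not analysed here. Values became log2(signal + 16), and limma 3.58.1 under R 4.3.3 tested the groups (eBayes moderation, two-sided, 4 residual degrees of freedom), over all 49293 probe sets and, separately, over 18132 genes on their brightest probe set by mean over 6 arrays. P-values were adjusted by Benjamini-Hochberg (threshold 0.05). The fit was tested on simulated data. Paralogue pairs were compared by exact permutation. Precision is limited by having 6 arrays.

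The members and lists were chosen with earlier results of these data known. Named were all members, ERCC6L, the 4 called genes of smallest p per list, a few fixed family members and targets, the neighbours of YAP1 and the 5 genes most like it. AMOTL2, PTPN14 and FJX1 are named for standing in 2 lists. Alternatives were a replicate block, 2 normalizations, pseudocounts of 1 and 64, a filter on dim probe sets, 2 variance models, averaged probe sets and leaving out each array.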

Additional observations from a re-analysis of the deposited data

How the results depend on the processing

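YAP1 stayed lower and past the threshold on all 8 probe sets in each of 14 other settings, at log2 fold changes of -1.50 to -1.33 on its brightest. Member probe sets called lower numbered 10 to 12 and member genes called lower 2 to 3. Calls of rises were less firm. Over all genes calls dropped as well when any array was left out. Rises went from 3302 to between 2783 and 3126, and falls from 2431 to between 1911 and 2253. Member probe sets called higher fell to 1 with quantile normalization and with a pseudocount of 1 (1 to 2 when any array was left out). Member genes called higher were 1 under both of these settings, 0 with probe sets averaged and 1 to 2 when any array was left out. YAP-TAZ targets called higher were 3 with a pseudocount of 1 and 2 to 6 when any array was left out, with 9 lower throughout. Other pathway genes called higher numbered 10 to 16 when any array was left out, the 10 without shNC replicate 1. The difference between YAP1 and WWTR1 was -1.14 with a pseudocount of 1, -0.99 with 64, -0.92 with probe sets averaged and -1.13 to -1.08 when any array was left out. NF2 changed sign with probe sets averaged (-0.019, not past the threshold). The cause of these shifts was not tested.

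Replicate numbers are shared between groups, but the deviations of same-numbered arrays were not all related (correlations 0.22, -0.15 and -0.03), so they were not treated as pairs. With a replicate block 11 member probe sets were lower and 2 higher, as without it. Member genes stood at 2 lower and 2 higher, other pathway genes at 19 lower and 18 higher, and YAP-TAZ targets at 9 lower and 6 higher. With 3 arrays per group and no detection calls, it is unknown how far the dim SAV1 and LATS1 signals can show a change.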
